A study of Danio rerio with 6 samples.

Results

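The nuclear-encoded genes of the mitochondrial respiratory chain and ATP synthase were followed in zebrafish embryos injected with a morpholino against Ovo1 and in control embryos. Members were genes whose single symbol in the platform annotation began with nduf followed by a, b, c, s or v, with sdh followed by a to d, with uqcr, with cox followed by 4 to 8, or with atp5, together with cyc1. This rule used names and no measured value, although it was chosen with earlier results of these data known. It found 86 of the 8793 genes named on the array, on 93 of 15502 tested probe sets, and each gene was read from its brightest probe set. The members comprised 39 genes of complex I, 7 of complex II, 8 of complex III, 14 of complex IV and 18 of complex V. By kind, 75 were subunits, 9 were assembly factors of complexes I and II that share the same name stems, and 2 were inhibitors of the ATP synthase. No probe set named for a mitochondrially encoded subunit was found, so the values below concern transcripts of the nuclear genome.

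Affymetrix arrays, 1 for each sample, measured the RNA of whole embryos at 12 h after fertilisation (6 somites). Ovo1 is a zinc finger transcription factor studied here for the neural crest, a cell population that leaves the neural tube and forms pigment cells and peripheral neurons, among others. The 3 Ovo1 morphant samples were AB-strain embryos that received the Ovo1 morpholino and are labelled as carrying sox10(7.2):gfp, a reporter driven by a sox10 promoter. The 3 control samples were AB-strain embryos of the same age, called wild type in their labels, although the design text can be read as giving the reporter to both groups. A morpholino acts in every cell that receives it, and the labels give no dose, no sequence, no statement that controls were injected, and no number of embryos per sample. Nothing states that the samples came from separate clutches, so each p-value reflects how much these samples spread, and that spread may be technical. In RNA of whole embryos, fewer cells of a type and less RNA per cell cannot be told apart.

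The respiratory chain passes electrons from NADH (complex I) and succinate (complex II) through ubiquinone, complex III and cytochrome c to oxygen at complex IV. Complexes I, III and IV pump protons across the inner mitochondrial membrane, and complex V lets them flow back to make ATP. Apart from complex II, each complex combines subunits of the nuclear genome with a few of the mitochondrial genome, so its assembly draws on both. Early zebrafish embryos inherit a large maternal store of mitochondria, and their somites and notochord form during the stage sampled here.

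The members were bright on these arrays. Of the 86 genes, 72 lay above the 75th percentile of the tested probe sets and 3 (ndufa4b, cox4i1l and sdhaf3) lay below the 25th percentile, at a normalised intensity of 36.7. The arrays differed in measures outside the members. The log2 ratio of the 3' to the 5' control probe set of gapdh, which is affected by RNA quality and labelling, was 0.013, 1.34 and 1.32 on Ovo1 morphant arrays 1 to 3, against -0.79, -0.49 and 0.16 on control arrays 1 to 3. For acta1 it was 3.87, 4.22 and 4.27 on Ovo1 morphant arrays 1 to 3, against 3.88, 3.64 and 4.01 on control arrays 1 to 3. For both genes, Ovo1 morphant arrays 2 and 3 lay above all controls, and Ovo1 morphant array 1 did not. The same ratio for the 4 added bacterial transcripts showed no such order, for example 0.79, 0.54 and 0.55 for lys on the Ovo1 morphant arrays and 0.66, 0.60 and 0.54 on the control arrays. Of 33 marker genes of embryonic tissues, 29 were measured and 26 of these lay above the 25th percentile (not nkx2.5, dazl or buc). In limma without a block for replicate number, at an adjusted p of 0.05, 1 of the 29 rose (klf17 of the hatching gland). The 4 that fell were sox2 and pax6a of the neural plate, tp63 of the epidermis and tfa of the yolk syncytial layer. Among all tested probe sets, 2.59% rose and 3.12% fell. Summed over each list, the markers lay lower in all Ovo1 morphants for the neural plate (3816 to 4706 in Ovo1 morphants, 4919 to 5027 in controls) and the yolk syncytial layer (14548 to 15532 in Ovo1 morphants, 16057 to 17806 in controls). Bright probe sets weigh most in these sums. For epidermis and periderm the sum lay higher in all Ovo1 morphants, by a narrow margin (26966 to 27361 in Ovo1 morphants, 25282 to 26832 in controls). The median log2 difference of that list was 0.049, and its tp63 fell. Sums also lay higher for endoderm (657 to 745 in Ovo1 morphants, 549 to 607 in controls), for maternal remnants and germ cells (182 to 218 in Ovo1 morphants, 131 to 165 in controls), and for klf17 alone of the hatching gland (813 to 925 in Ovo1 morphants, 571 to 658 in controls). Of the 3 measured genes of the maternal and germ cell list, 1 (ddx4) lay above the 25th percentile, and 0 were called. The groups overlapped for muscle and paraxial mesoderm (3557 to 6756 in Ovo1 morphants, 3596 to 4560 in controls), axial mesoderm, blood and vessel, and heart field. Of single tested probe sets, 12.4% lay higher in all Ovo1 morphants than in all controls, and 13.5% lay lower. The part of RNA quality and of tissue makeup in the results below was not tested.

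A few of the members rose and more were higher within pairs. In limma without a block for replicate number, at an adjusted p of 0.05, 4 of 86 members (4.65%) rose in Ovo1 morphants, against 2.59% of all tested probe sets, and 0 members fell, against 3.12% (either direction, 5.72%). At an unadjusted p under 0.05, 13 of 86 members were higher and 2 lower, against 1548 and 1751 of all 15502 tested probe sets. The same background applies to the unadjusted counts of the complexes and lists below. The number that rose moved with single arrays: it was 10, 1 and 2 without Ovo1 morphant 1, 2 and 3, and 2, 2 and 1 without control 1, 2 and 3. Over all tested probe sets it moved likewise, from 402 to 830, 152 and 218, and to 235, 154 and 146, in the same order. The 4 genes that rose were ndufab1b of complex I, cox5aa of complex IV, and atp5mc1 and atp5mf of complex V. Samples of the same replicate number deviated together, and with the replicate number as a block 18 members (20.9%) passed as higher, against a background of 8.82%, and 4 (4.65%) as lower, against 9.83% (either direction, 18.6%). The groups did not overlap, with all Ovo1 morphants above all controls, in 11 members (12.8%; 12.4% of all probe sets). All Ovo1 morphants lay below all controls in 4 members (4.65%; 13.5% of all probe sets). The Ovo1 morphant exceeded the control of the same number in all 3 pairs in 49 members (57.0%; 24.7% of all probe sets) and was the lower one in all 3 pairs in 12 members (13.95%; 26.2% of all probe sets). On the higher side, the share of members whose groups did not overlap was thus close to that of all probe sets, while the shares by pairs and with the block lay above it.

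The differences were small. The median log2 difference (Ovo1 morphant minus control) over the 86 members was 0.10, against -0.0014 over all tested probe sets, and 65 of 86 members (75.6%) had a difference above 0, against 49.7% of all probe sets. Member differences ranged between -0.38 and 0.50. By complex, the medians were 0.12 for complex I, 0.25 for complex II, 0.04 for complex III, 0.03 for complex IV and 0.09 for complex V. Complex II stood highest. The medians of complexes III, IV and V moved with the scaling of the arrays (0.044, 0.034 and 0.092 here, -0.0041, 0.0089 and 0.050 on the values as deposited). The 2096 tested probe sets at or above the 25th percentile of the members in brightness had a median of -0.008. Of these bright probe sets, 4.53% rose and 5.20% fell without a block, and 13.8% were higher and 15.8% lower with it. At an unadjusted p under 0.05, 296 of the 2096 were higher and 346 lower. All Ovo1 morphants lay above all controls in 15.4% of bright probe sets, more than in the members, and below them in 17.5%. The Ovo1 morphant was higher in all 3 pairs in 29.0% of bright probe sets and lower in all 3 in 31.1%. On the higher side, the shares of members that passed without a block, adjusted or unadjusted, were thus close to those of bright probe sets.

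**Figure D1:**
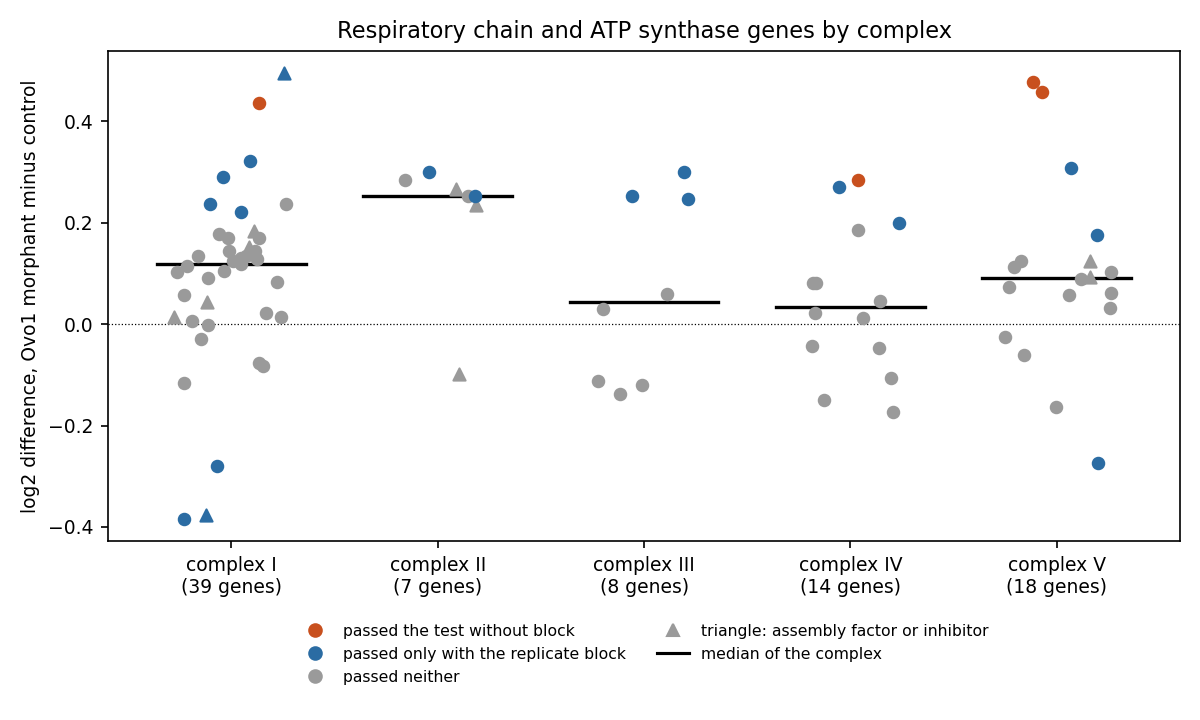
Log2 difference (Ovo1 morphant minus control) of each of the 86 genes, grouped by complex, with 1 point per gene, triangles for assembly factors and inhibitors, and a line at the median of each complex. Orange points passed limma without a block, blue points passed only with the replicate block, and grey points passed neither; the complex II line lies highest, at 0.25.

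Much of the variation of the members went with the replicate number. Over the members, the median share of a gene's variation that went with the number was 62.3%, and the median share that went with the group was 26.03%, against 43.9% and 24.5% over all probe sets. In complex I the share going with the number was 73.5%. When each probe set was centred on its own mean over the 6 arrays, the median member stood at -0.09, 0.10 and 0.13 on Ovo1 morphant arrays 1 to 3, and at -0.18, 0.04 and 0.006 on control arrays 1 to 3. Both arrays numbered 1 were low, control array 1 more so, and the Ovo1 morphant array was the higher one in each pair. Control array 1 held the lowest of the 6 values in 58 of 86 members (67.4%), against 17.4% of all probe sets, and the highest value in 0 members. Ovo1 morphant array 3 held the highest value in 40 members (46.5%), against 18.7% of all probe sets. The arrays numbered 1 also had the lowest signal of the bacterial transcripts added with the RNA, at 183, 273 and 227 on Ovo1 morphant arrays 1 to 3, against 202, 258 and 243 on control arrays 1 to 3 (geometric means). Without control array 1 the median difference over the members was 0.04, and without Ovo1 morphant array 1 it was 0.16. With both arrays numbered 1 left out, the median difference over the members was 0.08 and that of complex II was 0.26.

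**Figure D2:**
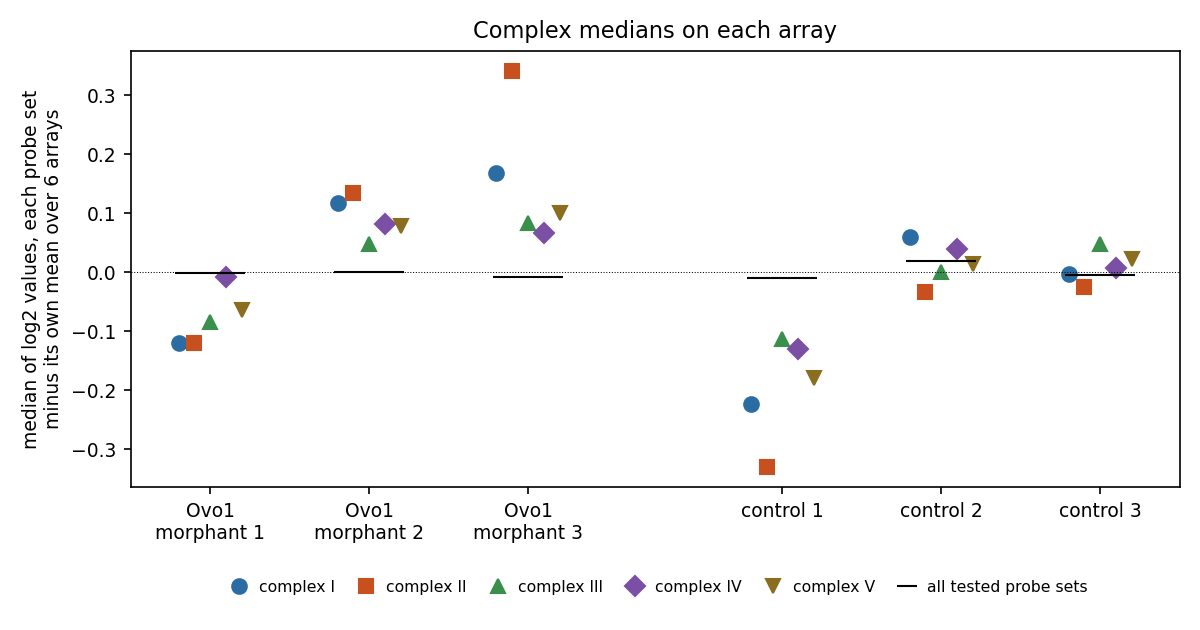
Median of the log2 values of each complex on each array, after every probe set was centred on its own mean over the 6 arrays; black bars show the same over all tested probe sets. All complexes lie lowest on control array 1, and complex II spans the widest range, between -0.33 on control array 1 and 0.34 on Ovo1 morphant array 3.

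By pairs of the same number, the median difference over the members was 0.11, 0.07 and 0.14 for numbers 1, 2 and 3, against 0.0019, -0.014 and 0.0002 over all probe sets. Complex II showed the largest medians in each pair, at 0.19, 0.15 and 0.40. Complex I had 0.11, 0.06 and 0.17, and complex V had 0.11, 0.05 and 0.10. Complex III had 0.07, 0.04 and 0.02, and complex IV had 0.06, 0.06 and 0.02. The medians of all 5 complexes were thus above 0 in all 3 pairs.

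Complex I oxidises NADH and is the largest complex of the chain. Of its 39 members, 31 had a difference above 0. Without a block 1 rose (2.56%, against 2.59% of all probe sets and 4.53% of bright ones) and 0 fell (against 3.12% and 5.20%). At an unadjusted p under 0.05, 4 stood above 0 and 2 below. With the replicate block 6 passed as higher (15.4%, against 8.82% of all probe sets and 13.8% of bright ones). In that fit 3 passed as lower (7.69%, against 9.83% and 15.8%). The gene that rose was ndufab1b, an acyl carrier protein that is a subunit of complex I and also serves mitochondrial fatty acid synthesis. Its normalised intensity was 2220, 2454 and 2356 in Ovo1 morphants 1 to 3, against 1713, 1834 and 1634 in controls 1 to 3. The groups did not overlap, and the log2 difference was 0.44 ± 0.08 (SE, 1.35-fold, limma adjusted p = 0.0153). The call was lost without Ovo1 morphant 2 (adjusted p = 0.0811) or control 3 (adjusted p = 0.0945). Its paralogue ndufab1a had 1490, 1898 and 1636 in Ovo1 morphants, against 1311, 1587 and 1398 in controls. The groups overlapped and the difference was 0.22 ± 0.11 (limma adjusted p = 0.304; 0.0386 with the replicate block). Related probe sets of paralogues may share signal, and the 3 probe sets of ndufab1a gave log2 differences between 0.017 and 0.22.

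The members that carry the redox centres of complex I sit in its peripheral arm, and they did not move one way. ndufs1, an iron-sulphur subunit of the NADH-oxidising part, had 675, 919 and 1149 in Ovo1 morphants 1 to 3, against 1041, 1263 and 1220 in controls 1 to 3. The groups overlapped because Ovo1 morphant 3 exceeded control 1. The difference was -0.38 ± 0.18 (limma adjusted p = 0.257; 0.0301 with the replicate block), the most negative of the members, and leaving out 1 array moved it between -0.56 and -0.18. ndufv1, which binds NADH and the flavin cofactor, had 874, 1026 and 1207 in Ovo1 morphants, against 827, 925 and 988 in controls. The Ovo1 morphant was higher in each pair, and the difference of 0.17 ± 0.13 did not pass (limma adjusted p = 0.522; 0.154 with the replicate block). ndufv2, ndufs7 and ndufs8a, which carry other iron-sulphur clusters, differed by 0.13 ± 0.11, 0.13 ± 0.11 and -0.002 ± 0.13, and none passed in either fit. The dimmer probe set of ndufv2 had all Ovo1 morphants above all controls, at 0.24 ± 0.09. It passed with the replicate block only (limma adjusted p = 0.165 without a block and 0.0486 with it). ndufs4, an accessory subunit needed for a stable peripheral arm in mammals, had 1032, 1196 and 1262 in Ovo1 morphants, against 824, 1036 and 925 in controls. The groups overlapped by a narrow margin, and the difference of 0.32 ± 0.12 passed with the replicate block only (limma adjusted p = 0.153; 0.0198 with the replicate block).

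Among the other accessory subunits of complex I, ndufc2, of the membrane arm, had 1692, 1674 and 1825 in Ovo1 morphants, against 1937, 2192 and 2184 in controls. Each Ovo1 morphant was below each control, and the difference was -0.28 ± 0.08 (limma adjusted p = 0.0858; 0.0175 with the replicate block). ndufa9a and ndufb4 also passed with the replicate block alone and are named because of it, at 0.29 ± 0.13 and 0.24 ± 0.10 (limma adjusted p = 0.263 and 0.21; 0.028 and 0.0282 with the replicate block). ndufa4a, placed in complex I by its name and now regarded as a subunit of complex IV, had 4367, 4840 and 4420 in Ovo1 morphants, against 4437, 4605 and 4521 in controls. The groups overlapped, with a difference of 0.005 ± 0.06. Its paralogue ndufa4b was too dim to compare, at 2.1 to 6.4 in Ovo1 morphants and 5.4 to 5.8 in controls.

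The assembly factors of complex I differed from one another. ndufaf1, which helps to build the membrane arm, had 417, 541 and 513 in Ovo1 morphants, against 319, 368 and 339 in controls. The Ovo1 morphants were clear of the controls, and the log2 difference of 0.50 ± 0.13 (1.41-fold) was the largest of the members, with a limma adjusted p of 0.0594 (0.00644 with the replicate block). Its dimmer probe set differed by 0.59 ± 0.11 and passed (limma adjusted p = 0.0187), so the call of this gene depended on the probe set. ndufaf2, which acts late in assembly, had 188, 201 and 157 in Ovo1 morphants, against 225, 277 and 220 in controls. The Ovo1 morphants were the 3 lowest arrays, at -0.38 ± 0.14 (limma adjusted p = 0.171; 0.0286 with the replicate block). ndufaf4, ndufaf5, ndufaf6 and ndufaf8 differed by 0.15, 0.18, 0.045 and 0.013, and none of these passed in either fit.

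Complex II, succinate dehydrogenase, links the chain to the citric acid cycle, and all of its subunits are encoded in the nucleus. All 4 measured subunits had differences between 0.25 and 0.30, with a median of 0.27, and each Ovo1 morphant exceeded the control of its number. In the test without a block 0 of the 7 complex II members passed in limma, against 5.72% of all probe sets (0 at an unadjusted p under 0.05). With the block 2 were higher (28.6%, against 8.82% of all probe sets and 13.8% of bright ones) and 0 lower (against 9.83% and 15.8%). sdha, the flavoprotein that oxidises succinate, had 684, 1101 and 1091 in Ovo1 morphants 1 to 3, against 671, 806 and 833 in controls 1 to 3. Ovo1 morphant 1 lay among the controls, and the difference was 0.28 ± 0.18 (limma adjusted p = 0.439; 0.0688 with the replicate block). Without Ovo1 morphant 1, sdha passed (limma adjusted p = 0.0239). sdhb, the iron-sulphur subunit, had 1220, 1513 and 1750 in Ovo1 morphants, against 1037, 1385 and 1320 in controls. The groups overlapped through Ovo1 morphant 1, and the difference was 0.25 ± 0.15 (limma adjusted p = 0.400; 0.0449 with the replicate block).

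sdhc, one of the membrane anchors of complex II, had 1548, 1850 and 2282 in Ovo1 morphants, against 1261, 1644 and 1677 in controls. The difference was 0.30 ± 0.16 (limma adjusted p = 0.320; 0.0196 with the replicate block). sdhdb, the other anchor, had 602, 660 and 782 in Ovo1 morphants, against 487, 595 and 625 in controls, at 0.25 ± 0.14 (limma adjusted p = 0.337; 0.0609 with the replicate block). In both anchors Ovo1 morphant 3 was the highest array, control 1 the lowest, and the groups overlapped through Ovo1 morphant 1. Of the assembly factors, sdhaf2, which attaches the flavin to sdha, differed by 0.23 ± 0.14 and sdhaf4 by -0.10 ± 0.12 (limma adjusted p = 0.386 and 0.721). sdhaf3, a dim gene at 13.4 to 23.6 in Ovo1 morphants and 10.5 to 17.0 in controls, differed by 0.27 ± 0.14 (limma adjusted p = 0.331).

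**Figure D3:**
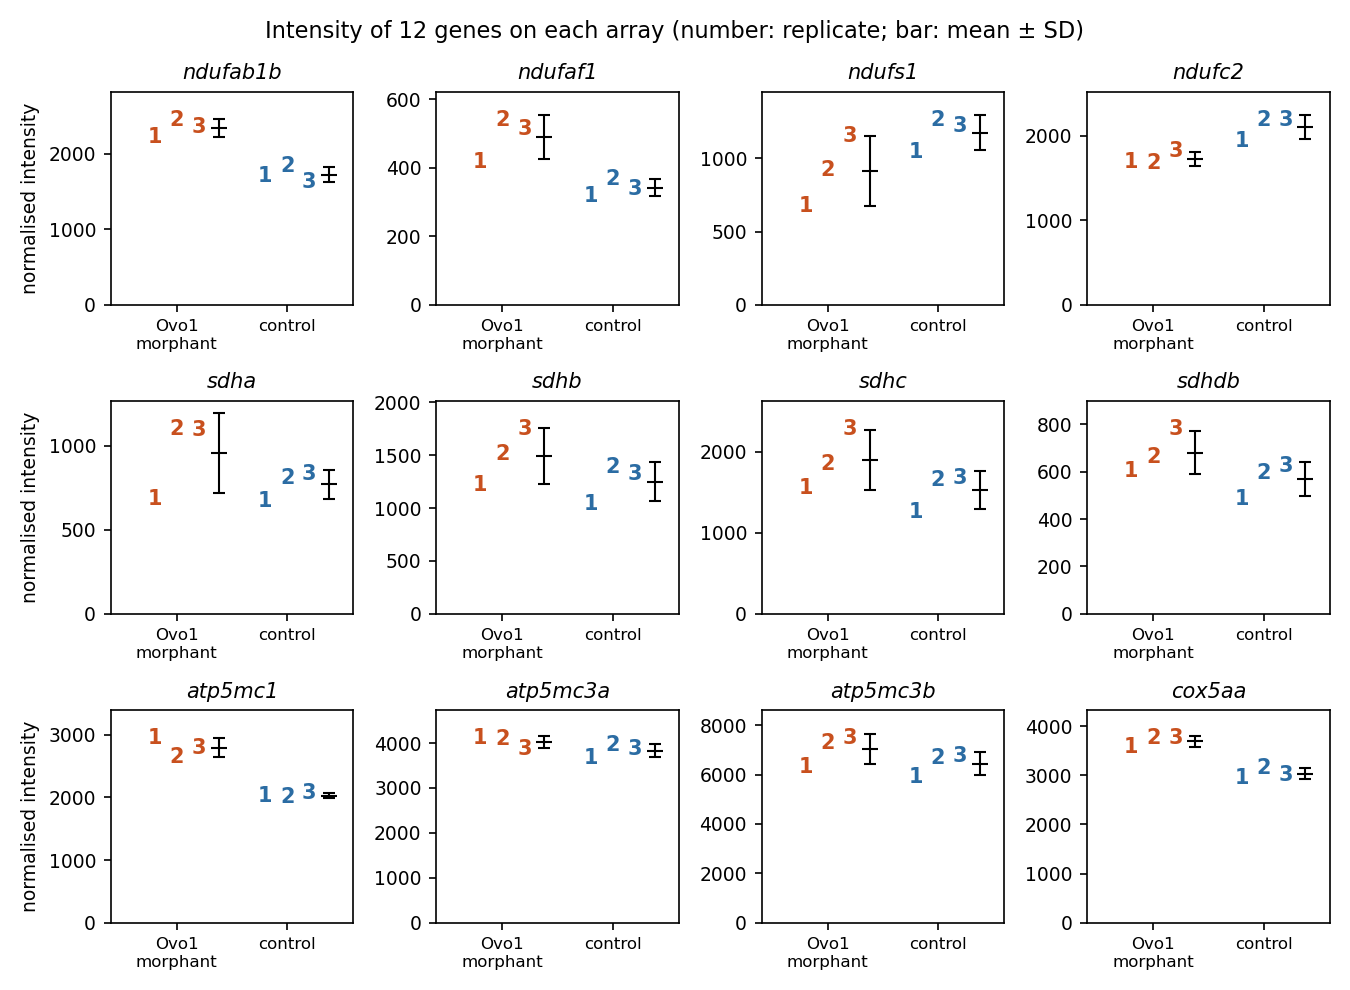
Normalised intensity of 12 genes on each array, Ovo1 morphants left of controls, with numerals marking the replicate number and bars giving the mean ± SD of 3 arrays; each vertical axis starts at 0. The groups are apart for ndufab1b, ndufaf1, ndufc2, atp5mc1 and cox5aa and overlap for the 4 complex II subunits.

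Complex III takes electrons from ubiquinol to cytochrome c. Of its 8 members, 5 had a difference above 0. In limma without a block 0 passed, against 5.72% of all probe sets (2 higher and 0 lower at an unadjusted p under 0.05). With the block 3 were higher (37.5%, against 8.82% of all probe sets and 13.8% of bright ones) and 0 lower (against 9.83% and 15.8%). cyc1, the cytochrome c1 that hands electrons on to cytochrome c, had 2905, 3140 and 3060 in Ovo1 morphants, against 2478, 2646 and 2543 in controls. The 3 highest arrays were the Ovo1 morphants, at 0.25 ± 0.06 (limma adjusted p = 0.0640; 0.0123 with the replicate block). uqcrc1, a core protein related to processing peptidases, had 2012, 2226 and 2450 in Ovo1 morphants, against 1725, 1820 and 1861 in controls. These groups also lay apart, at 0.30 ± 0.09 (limma adjusted p = 0.0867; 0.0112 with the replicate block).

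The paralogues of the other core protein of complex III differed in sign. uqcrc2a had 985, 1197 and 1308 in Ovo1 morphants, against 811, 1005 and 1108 in controls, at 0.25 ± 0.14 (limma adjusted p = 0.364; 0.0329 with the replicate block). Its dimmer probe set stood at -0.09 ± 0.19. uqcrc2b had 1583, 1521 and 1676 in Ovo1 morphants, against 1719, 1778 and 1696 in controls, so all Ovo1 morphants were below all controls, with a difference of -0.12 ± 0.07 that did not pass (limma adjusted p = 0.422; 0.256 with the replicate block). uqcrfs1, the Rieske iron-sulphur protein, differed by 0.03 ± 0.09, a value whose sign turned with the scaling of the arrays. The small accessory subunits uqcrh, uqcrb and uqcrq differed by 0.06, -0.11 and -0.14, and none passed.

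Complex IV reduces oxygen, and its nuclear subunits surround a mitochondrially encoded core. Of its 14 members, 9 had a difference above 0. Without a block 1 rose (7.14%, against 2.59% of all probe sets and 4.53% of bright ones) and 0 fell (against 3.12% and 5.20%). At an unadjusted p under 0.05, 3 were higher and 0 lower. With the block 3 were higher (21.4%, against 8.82% of all probe sets and 13.8% of bright ones) and 0 lower (against 9.83% and 15.8%). cox5aa, a form of subunit 5A on the matrix side, had 3567, 3760 and 3765 in Ovo1 morphants, against 2947, 3153 and 3005 in controls. No control reached an Ovo1 morphant, and the difference was 0.28 ± 0.06 (1.22-fold, limma adjusted p = 0.0316). Leaving out any of the arrays other than Ovo1 morphant 1 ended the call, with adjusted p up to 0.140. Its paralogue cox5ab had 1688, 2004 and 1929 in Ovo1 morphants, against 1269, 1661 and 1753 in controls. Ovo1 morphant 1 lay among the controls, and the difference was 0.27 ± 0.13 (limma adjusted p = 0.270; 0.0285 with the replicate block).

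cox7a2l, whose product joins complexes III and IV into supercomplexes, had 2164, 2286 and 2325 in Ovo1 morphants, against 1896, 2048 and 1948 in controls. The groups lay apart, at 0.20 ± 0.07 (limma adjusted p = 0.145; 0.0415 with the replicate block). cox7a2a, a related small subunit, also had all Ovo1 morphants above all controls and differed by 0.19 ± 0.08 (limma adjusted p = 0.221). cox7c, another small subunit, had 5708, 5458 and 5398 in Ovo1 morphants, against 5903, 6167 and 5762 in controls, and was the one complex IV member with all Ovo1 morphants below all controls, at -0.11 ± 0.05 (limma adjusted p = 0.291). cox6b2 and cox5ba differed by -0.05 ± 0.05 and 0.01 ± 0.06. The measured forms of subunit 4, which is the regulatory subunit of the complex, were dim. cox4i1l read 11.2 to 13.1 in Ovo1 morphants and 12.3 to 17.8 in controls, and cox4i2 read 37.4 to 80.4 in Ovo1 morphants and 51.5 to 82.7 in controls. A further form, cox4i1, was not among the members, so the level of subunit 4 as a whole is not known here.

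Complex V consists of a catalytic head, a rotor in the membrane and a stator that holds the head in place. Of its 18 members, 14 had a difference above 0. Without a block 2 rose (11.1%, against 2.59% of all probe sets and 4.53% of bright ones) and 0 fell (against 3.12% and 5.20%). At an unadjusted p under 0.05, 4 were higher and 0 lower. With the replicate block 4 were higher (22.2%, against 8.82% of all probe sets and 13.8% of bright ones). In that fit 1 was lower (5.56%, against 9.83% and 15.8%). atp5mc1 encodes subunit c, which forms the ring that protons turn. It had 2952, 2652 and 2783 in Ovo1 morphants, against 2015, 2007 and 2067 in controls. The groups lay well apart, at 0.46 ± 0.07 (95% interval 0.30 to 0.61, 1.37-fold, limma adjusted p = 0.00711). Its call held without each array in turn, with adjusted p up to 0.0468. The other genes of subunit c lay closer to 0. atp5mc3a had 4118, 4086 and 3877 in Ovo1 morphants, against 3666, 3957 and 3862 in controls, and differed by 0.07 ± 0.06 (limma adjusted p = 0.553). atp5mc3b had 6324, 7286 and 7491 in Ovo1 morphants, against 5918, 6663 and 6748 in controls, and differed by 0.12 ± 0.08 (limma adjusted p = 0.423). The difference between atp5mc1 and these paralogues was not tested.

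atp5mf, a small subunit of the membrane part, had 3165, 3636 and 3717 in Ovo1 morphants, against 2211, 2657 and 2683 in controls. Every control was below every Ovo1 morphant, at 0.48 ± 0.10 (1.39-fold, limma adjusted p = 0.0259). Leaving out any of the arrays other than Ovo1 morphant 1 ended the call, with adjusted p up to 0.117. Another small membrane subunit, atp5mea, had 504, 591 and 606 in Ovo1 morphants, against 585, 727 and 761 in controls. The groups overlapped, and the difference was -0.27 ± 0.13 (limma adjusted p = 0.270; 0.0415 with the replicate block). Its paralogue atp5meb had 1161, 1435 and 1362 in Ovo1 morphants, against 1069, 1279 and 1310 in controls, at 0.11 ± 0.11 (limma adjusted p = 0.655). atp5mj and atp5md, also small membrane subunits, differed by -0.16 ± 0.08 and -0.06 ± 0.12, and neither passed.

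In the head of complex V, atp5f1b, the catalytic beta subunit, had 5210, 5350 and 5689 in Ovo1 morphants, against 5458, 5278 and 5148 in controls. The groups overlapped, at 0.03 ± 0.06 (limma adjusted p = 0.823), and the sign turned without normalisation between arrays. atp5f1c, the gamma subunit that turns inside the head, had 3717, 4210 and 4303 in Ovo1 morphants, against 2921, 3488 and 3476 in controls. All Ovo1 morphants lay above all controls, at 0.31 ± 0.09 (limma adjusted p = 0.0867; 0.00354 with the replicate block). atp5f1d and atp5f1e, which attach gamma to the ring, differed by 0.06 ± 0.10 and 0.10 ± 0.09. Of the stator, atp5pb passed with the replicate block and is named because of it, with 4420, 4497 and 4534 in Ovo1 morphants, against 3823, 4024 and 4052 in controls (0.18 ± 0.05, limma adjusted p = 0.101; 0.028 with the replicate block). atp5pd and atp5pf differed by 0.06 and 0.09. The inhibitors atp5if1a and atp5if1b, which stop the enzyme from running backwards and using up ATP, differed by 0.09 ± 0.09 and 0.12 ± 0.18 (limma adjusted p = 0.643 and 0.779).

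**Figure D4:**
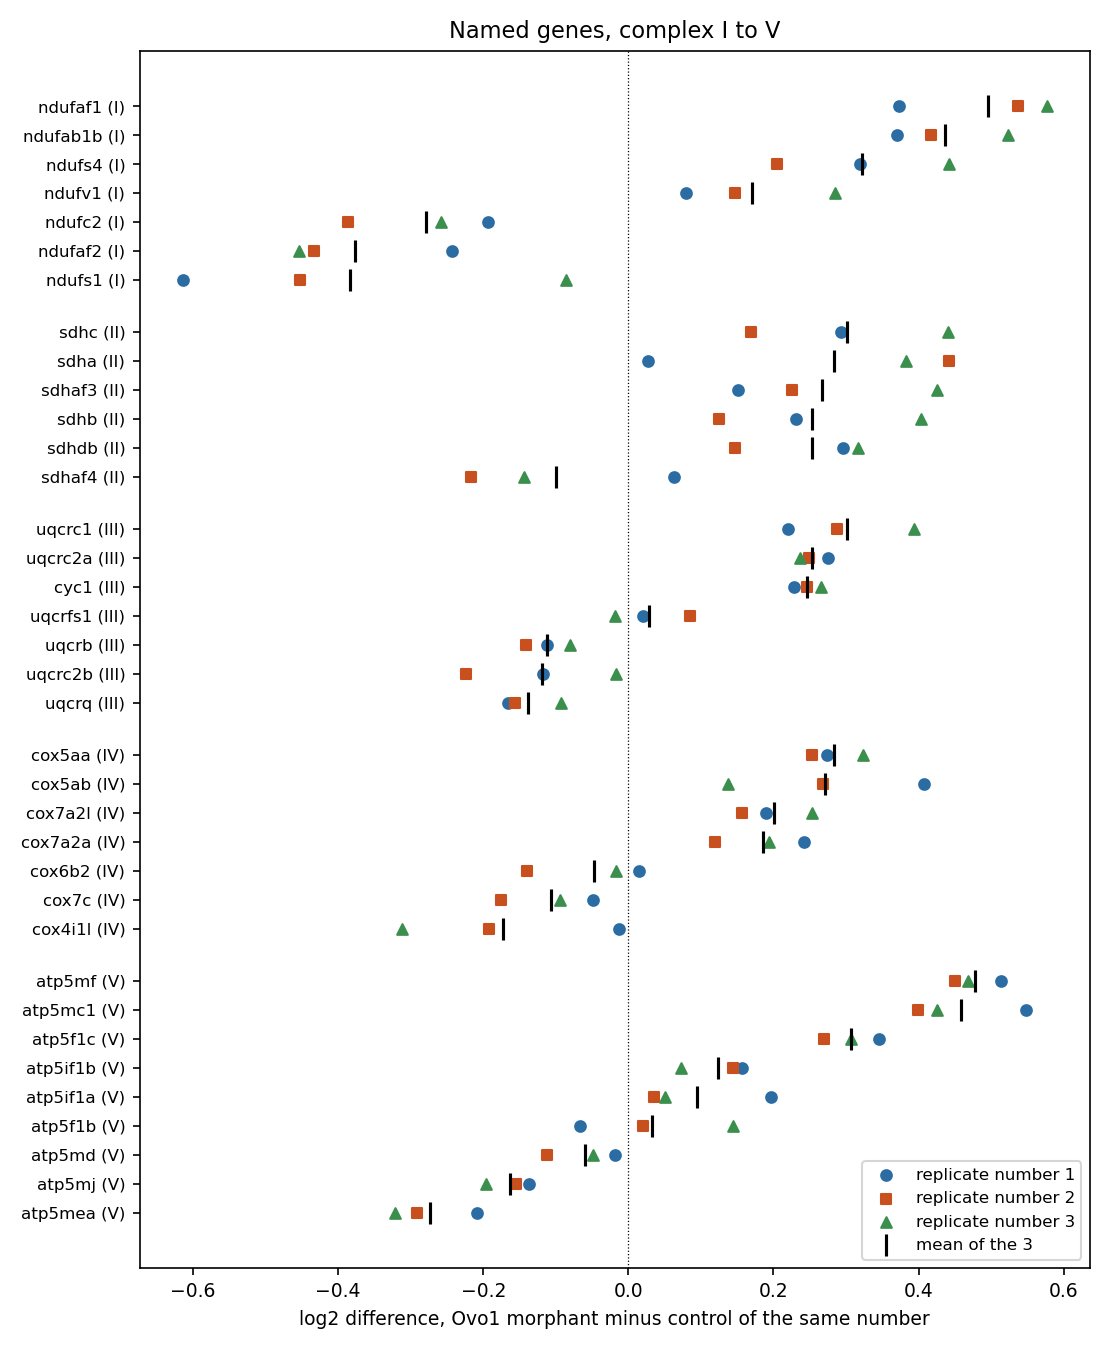
Log2 difference between the Ovo1 morphant and the control of the same replicate number, for the genes chosen by the naming rule, ordered by complex and by mean; symbols mark the 3 numbers and bars their mean. The differences of atp5mc1, atp5mf, ndufab1b and ndufaf1 lie between 0.37 and 0.58 in all 3 numbers, while those of ndufs1 spread between -0.61 and -0.09.

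Genes outside the members that assemble, serve or regulate the same complexes were read from lists. These were chosen for their function, with earlier results of these data known. Of 42 further assembly factors 21 were measured. In limma without a block 3 rose (14.3%, against 2.59% of all probe sets) and 0 fell (against 3.12%). At an unadjusted p under 0.05, 7 were higher and 1 lower. With the replicate block 7 were higher (33.3%, against 8.82%) and 1 lower (4.76%, against 9.83%), the median difference was 0.19, and 19 were above 0. cox17, a copper chaperone for complex IV, had 756, 836 and 787 in Ovo1 morphants, against 478, 562 and 495 in controls (0.62 ± 0.10, limma adjusted p = 0.0120). cox15, which makes the haem a of complex IV, had 308, 338 and 359 in Ovo1 morphants, against 193, 222 and 208 in controls (0.65 ± 0.12, limma adjusted p = 0.0160). lrpprc, which stabilises mitochondrial mRNAs, rose by 0.37 ± 0.09 (limma adjusted p = 0.0451). The groups lay apart for all 3 genes. Among those that did not pass, atpaf2, an assembly factor of complex V, differed by -0.44 ± 0.11 and tmem126a, linked to complex I assembly, by 0.79 ± 0.21 (limma adjusted p = 0.0593 and 0.0679; 0.0137 and 0.0013 with the replicate block).

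The regulators of mitochondrial gene expression had 13 of 23 listed genes measured. In limma without a block 0 rose (against 2.59% of all probe sets) and 2 fell (15.4%, against 3.12%). At an unadjusted p under 0.05, 3 were higher and 3 lower. With the replicate block 2 were higher and 2 lower (15.4% each, against 8.82% and 9.83%). nrf1, the nuclear respiratory factor that activates many respiratory chain genes in mammals, had 789, 671 and 584 in Ovo1 morphants, against 981, 1078 and 1079 in controls. yy1a, an orthologue of the mammalian transcription factor YY1, had 738, 717 and 542 in Ovo1 morphants, against 1009, 1022 and 997 in controls. Both genes were lower in each Ovo1 morphant than in each control, at -0.62 ± 0.12 and -0.60 ± 0.12 (limma adjusted p = 0.0231 and 0.0287). tfb2m and polg2, of mitochondrial transcription and DNA replication, were the others of smallest p, at 0.38 and 0.35, and did not pass without a block. With the replicate block polg2 passed (limma adjusted p = 0.0354) and tfb2m did not (limma adjusted p = 0.0503). The 10 measured electron carriers and transporters of phosphate and nucleotides, of 14 listed, had a median difference of 0.05. In limma without a block 0 passed, against 5.72% of all probe sets (2 higher and 0 lower at an unadjusted p under 0.05). With the replicate block 1 was higher (10%, against 8.82%) and 0 lower (against 9.83%), so the share on the higher side was close to that of all probe sets. slc25a3b, the phosphate carrier, and vdac2, a channel of the outer membrane, were nearest, at 0.14 and 0.15. With the replicate block slc25a3b passed (limma adjusted p = 0.0381) and vdac2 did not (limma adjusted p = 0.0703).

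Of 59 mitochondrial ribosomal protein genes, 4 rose in limma without a block (mrpl57, mrpl12, mrps30 and mrpl36, by 0.43 to 0.54) and 1 fell (mrps34, at -0.52), with a median of 0.09. These were 6.78% and 1.69% of the list, against 2.59% and 3.12% of all probe sets, and 11 were higher and 3 lower at an unadjusted p under 0.05. With the replicate block 12 were higher (20.3%, against 8.82%) and 3 lower (5.08%, against 9.83%). mrps10 and mrpl21 were nearest among the rest, at -0.66 and 0.42. Calls in these lists rested on few arrays: leaving out 1 array ended the call in at least 1 case for each called gene named here outside the members.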

How the data were processed

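Total RNA of 3 Ovo1 morphant and 3 control whole-embryo samples was measured on Affymetrix arrays, from 5 µg of RNA per the labels' protocols. The authors deposited 1 linear intensity per probe set and array, summarised by PLIER according to the submitters' processing notes, which also name Affymetrix Expression Console 1.1; the sources used here do not give its settings. Log2 medians of the deposited arrays spanned 0.19, so log2(intensity + 16) was quantile normalised, and 115 Affymetrix control probe sets were left out. The printed normalised intensity is that value turned back to the linear scale. The pseudocount shrinks differences of dim genes. Differences were tested with limma 3.58.1 in R 4.3.3 (trend in the prior variance, Benjamini-Hochberg over 15502 probe sets, threshold 0.05). The fit was also run on simulated data whose noise was independent between arrays. That run does not bear on variation shared by arrays of the same number. The number of arrays limits the precision.

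Probe sets were named through the platform annotation: 10795 had 1 symbol, 135 several and 4572 none, and none was named from several symbols, which leaves out 2 respiratory probe sets. Samples sharing a replicate number in their titles correlated in their deviations from the group means (r = 0.58, 0.46 and 0.54 for numbers 1, 2 and 3). Between different numbers, r lay between -0.50 and 0.10. A rule set before the calls of the fits were compared took the numbers as pairs if each same-numbered r exceeded 0.1. That rule was met. The design text states no block, so the main fit nevertheless has none. Its SE, its intervals and the fits with single arrays left out therefore ignore this pairing. The fit with the number as a block is given where it changes the call of a member.

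The members, lists and tests were chosen with earlier results of these data known. Named genes were the called members, in each complex the 3 of smallest p in each direction, members called with the block that differed by at least 0.5, and 20 core subunits (15 measured). Paralogue partners were added, and genes outside this rule were named after their values were seen. In the other lists, called genes and at most 2 others of smallest p were named. Alternatives were another scaling, pseudocounts of 1 and 64, a brightness filter, array weights, no variance trend, no moderation, other probe set rules, the block, and each array left out.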

Additional observations from a re-analysis of the deposited data

How the results depend on the processing

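Of 86 members, 4 were called higher and 0 lower. Counts of 2 higher were found on the values as deposited and without the variance trend, 1 with median centring and 1 without moderation, 15 with array weights, and 1 to 10 when single arrays were left out (0 to 0 lower). Over all probe sets the counts of higher moved too, from 402 to 278, 367, 327, 114, 1519 and 146 to 830, in the same order. With the replicate block 18 members were higher and 4 lower, against 1367 and 1524 of all probe sets. Array weights gave 1 member lower, against 1607 of all probe sets. With both arrays numbered 1 left out, an alternative chosen after seeing the data, 9 were higher and 1 lower; all probe sets then gave 1749 calls, against 886. atp5mc1 kept its call in every alternative run. ndufab1b, cox5aa and atp5mf each lost theirs with median centring (limma adjusted p = 0.0742, 0.229 and 0.0697). They also lost them without moderation (linear model adjusted p = 0.0781, 0.0717 and 0.159). cox5aa and atp5mf lost theirs on the values as deposited too (limma adjusted p = 0.152 and 0.0759). The same held without the variance trend (limma adjusted p = 0.114 and 0.0621). Median log2 differences ranged, over single arrays left out, between 0.039 and 0.158 for all members, 0.038 and 0.219 for complex I, 0.152 and 0.390 for complex II, 0.0029 and 0.075 for complex III, -0.017 and 0.099 for complex IV, and 0.023 and 0.146 for complex V. On the values as deposited, the medians were -0.0041 for complex III, 0.0089 for complex IV and 0.050 for complex V; with median centring, complex III had 0.0028 and complex V 0.057. Signs turned for atp5f1b (-0.0027 as deposited; -0.0037 to 0.060 over arrays left out), uqcrfs1 (-0.020 as deposited, -0.013 with median centring; -0.039 to 0.1005), atp5md (0.021 with array weights; -0.166 to 0.037) and atp5if1b (-0.023 to 0.279), none of which was called; the causes were not tested. Dim members and genes on several probe sets are the least certain, and a difference that missed the threshold here is not shown to be absent.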

Other observations

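Genes of mitochondrial structure and of uncoupling were also read from lists chosen for their function, with earlier results of these data known. Of 24 listed genes of mitochondrial import, cristae and dynamics 15 were measured, with a median log2 difference of 0.29 and 14 above 0. In limma without a block 2 rose (13.3%, against 2.59% of all probe sets) and 0 fell (against 3.12%). At an unadjusted p under 0.05, 7 were higher and 0 lower. With the replicate block 5 were higher (33.3%, against 8.82%) and 0 lower (against 9.83%). phb2b, a prohibitin of the inner membrane, had 782, 896 and 1097 in Ovo1 morphants 1 to 3, against 453, 553 and 683 in controls 1 to 3. All Ovo1 morphants lay above all controls, at 0.71 ± 0.17 (limma adjusted p = 0.0468). tomm40, the import channel of the outer membrane, had 1533, 1658 and 1578 in Ovo1 morphants, against 1259, 1286 and 1243 in controls, at 0.33 ± 0.08 (limma adjusted p = 0.0411). dnm1l, which divides mitochondria, and immt, a scaffold of cristae junctions, differed by 0.48 and 0.51 and did not pass (limma adjusted p = 0.0651 and 0.0942).

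Of 5 genes of the uncoupling protein family, 1 rose (20%, against 2.59% of all probe sets) and 0 fell (against 3.12%) without a block. At an unadjusted p under 0.05, 1 was higher and 1 lower. With the replicate block 1 was higher and 1 lower (20% each, against 8.82% and 9.83%). The gene that rose was slc25a14, with 89.3, 71.2 and 80.7 in Ovo1 morphants, against 47.7, 48.9 and 52.1 in controls (0.55 ± 0.12, limma adjusted p = 0.0351). ucp2, an inner membrane carrier, had 2443, 1889 and 1600 in Ovo1 morphants, against 2754, 3126 and 2642 in controls. All Ovo1 morphants lay below all controls, and the difference of -0.54 ± 0.14 passed with the replicate block only (limma adjusted p = 0.0660; 0.00845 with the replicate block). Each of the calls made without a block was lost when some single arrays were left out.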
